A study of Mus musculus with 5 samples.

Results

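The activator protein 1 (AP-1) and immediate-early response was followed through 10 genes across the cell classes and libraries of a mouse retina experiment: Fos, Fosb and Fosl2 of the Fos family, Jun, Junb and Jund of the Jun family, Atf3, and the immediate-early genes Egr1, Nr4a1 and Ier2. They were chosen by name, with no threshold on their values, and are 10 of the 33696 mouse genes counted. All 10 were counted in every library and passed the filter on low counts in every main test. The experiment was single-cell RNA sequencing (droplet capture, 3′ tags with unique molecular identifiers, UMIs) of tdTomato-sorted retinal cells, made to ask what becomes of Müller glia, the main support cells of the retina, after a temporary activation of YAP.

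Both groups of adult mice carried Glast-CreERT2, a tamoxifen-dependent Cre driven in glia, and the Rosa26-Ai65 reporter, which makes tdTomato only in cells that have had both Cre and FlpO. Control mice received ShH10-GFAP-mKate2, an adeno-associated virus (AAV) with a red fluorescent protein, and the other mice received ShH10-GFAP-Yap5SA, which carries an active form of YAP that cannot be phosphorylated at its inhibitory sites. Each virus also carried FlpO and used the Gfap promoter, so the labelled cells are those in which virus and Cre both acted. Per the study's methods, Cre was activated by tamoxifen injections. The mKate2 virus was given at a higher titre than the Yap5SA virus, in the same volume. The dose of virus therefore cannot be told apart from the gene it carried. The mice were 12 to 20 weeks old, both sexes were pooled, and cells were taken 56 days after injection from 16 pooled mKate2 retinas and 21 pooled Yap5SA retinas. The sources do not tie a library to particular mice, so every p-value below measures the spread between libraries, which may be technical.

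The series holds 5 libraries, 2 of mKate2 AAV and 3 of Yap5SA AAV, with 12317170 to 50938304 UMIs each. Yap5SA AAV replicate 2 shared 1361 of its 1364 barcodes with Yap5SA AAV replicate 1, against at most 7 for any other pair, and was left out, so that each AAV had 2 libraries. The headers of the count matrices named Cell Ranger 8.0.0 for replicate 1 of each AAV and 9.0.1 for mKate2 AAV replicate 2 and Yap5SA AAV replicate 3. These pairs are called the 8.0.0 and the 9.0.1 libraries below. The version served only as a label. Anything else that differed between the captures, such as dissociation or sorting, cannot be told apart from it. Wherever 2 values are given for a pair of libraries, the mKate2 value comes first.

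Of 15293 barcodes in the 4 libraries, 10749 had at least 1000 UMIs and at most 15% mitochondrial UMIs. Müller glia were those with at least 0.5% of UMIs from Glul, Rlbp1, Slc1a3, Clu and Aqp4, which gave 1498 and 803 cells in the 8.0.0 libraries and 2898 and 1341 in the 9.0.1 libraries. Of 10 Müller glia markers outside the rule, 8 were higher in Müller glia than in all 12 other class sums of the same libraries, among them Sox9 (435 to 773 CPM against at most 45.7 CPM) and Kcnj10 (82.4 to 126.8 CPM against at most 16.4 CPM). The other two were Vim, higher in 10 of 12, and Apoe, higher in 8 of 12. Between 6 and 214 Müller glia per library also held enough markers of another class to meet that class's threshold, with the highest numbers for rod markers (73 and 123 cells) in the 9.0.1 libraries. Although the labels describe sorted Müller glia, myeloid cells (microglia and macrophages by C1qa, Csf1r and 8 other markers) were present in all 4 libraries, with 25, 914, 136 and 64 cells in mKate2 replicates 1 and 2 and Yap5SA replicates 1 and 3. Neurons numbered at least 20 of a class only in the 9.0.1 libraries, which held 652 and 618 rods, 39 and 49 cones, 385 and 64 bipolar cells and 118 and 34 amacrine cells. UMIs of tdTomato were found in 45.1% and 65.1% of the Müller glia of the 8.0.0 libraries. The gene lists of the 9.0.1 libraries had no tdTomato entry, so the label could not be checked there.

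AP-1 is a pair of proteins, either a Fos protein with a Jun protein or 2 Jun proteins, that binds DNA through a leucine zipper. ATF proteins such as ATF3 form pairs with Jun proteins as well. The immediate-early genes are transcribed within minutes of a stimulus from factors already present in the cell, without new protein synthesis, and their mRNAs are short-lived. Growth factors, neuronal activity, injury and the dissociation of tissue into single cells are all known to induce them. SRF acts on many of their promoters through the CArG box, and CREB and ATF proteins act through the cAMP response element (CRE).

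The 150 bases before the transcription start of 5 members are shown because the letters of the CRE separate them, Fosl2 being the member of the Fos family without a match. Sequence is from GRCm39 with start sites of GENCODE vM39, written 5′ to 3′ on the gene's strand, and capitals mark TGACGTCA (the CRE) or its core TGACG on either strand.
Fos, chr12:85520508-85520657, plus strand: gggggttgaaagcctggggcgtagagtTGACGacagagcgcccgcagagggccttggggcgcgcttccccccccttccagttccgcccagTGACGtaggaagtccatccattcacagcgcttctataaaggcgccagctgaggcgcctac
Fosb, chr7:19043977-19044126, minus strand: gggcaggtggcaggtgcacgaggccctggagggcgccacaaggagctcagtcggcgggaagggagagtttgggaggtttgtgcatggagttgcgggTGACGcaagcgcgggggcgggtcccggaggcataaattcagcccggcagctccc
Junb, chr8:85705348-85705497, minus strand: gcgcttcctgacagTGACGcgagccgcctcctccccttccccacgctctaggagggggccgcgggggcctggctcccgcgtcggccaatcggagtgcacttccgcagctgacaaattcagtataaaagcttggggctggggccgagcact
Ier2, chr8:85389484-85389633, minus strand: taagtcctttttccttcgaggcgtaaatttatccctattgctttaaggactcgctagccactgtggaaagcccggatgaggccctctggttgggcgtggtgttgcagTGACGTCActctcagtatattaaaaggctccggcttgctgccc
Fosl2, chr5:32292557-32292706, plus strand: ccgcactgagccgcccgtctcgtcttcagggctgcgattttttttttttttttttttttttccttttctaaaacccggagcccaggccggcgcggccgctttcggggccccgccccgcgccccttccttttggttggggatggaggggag

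In the 250 bases before the start, TGACG was found on either strand in 7 of the 10 members, and in 18.0% of 21770 protein-coding promoters of the same length. The 7 were Fos, Fosb, Junb, Jund, Egr1, Nr4a1 and Ier2, and Fosl2, Jun and Atf3 had none. The full TGACGTCA, which contains the core on both strands, was found in Jund and Ier2 and in 1.69% of all promoters. The AP-1 site, TGACTCA or TGAGTCA, was found in no member and in 4.02% of promoters, and the CArG box in no member and 1.40%. These are matches of letters in 1 window and were not tested for binding. Jun (chr4:94937271-94940459), Junb (chr8:85701113-85705359), Jund (chr8:71151599-71153265) and Ier2 (chr8:85387960-85389483) have a single exon in their canonical transcript. Atf3 lies at chr1:190902493-190950241 and Nr4a1 at chr15:101151980-101172681. Fosl2, Jun, Junb, Jund, Atf3 and Nr4a1 overlap another annotated gene, mostly on the opposite strand (Junos for Jun, Prdx2 for Junb). The study names a 3′ kit and Cell Ranger but does not state how reads in such overlaps were counted. The part of the partners in the counts was not measured.

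In Müller glia the members were at a low level in both 8.0.0 libraries and at a high level in both 9.0.1 libraries. Levels are given as CPM, the part of all UMIs of the summed cells of a class, with 861 CPM being 0.0861% of them. Together the 10 genes made up 861 and 2183 CPM in the 8.0.0 libraries and 20845 and 13375 CPM in the 9.0.1 libraries, the latter being 2.08% and 1.34% of all UMIs. In such sums, fewer cells that express a gene and less RNA per cell cannot be told apart.

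Fos, whose protein is the classical partner of Jun, was at 243 and 729 CPM in the Müller glia of the 8.0.0 libraries and 6470 and 3976 CPM in those of the 9.0.1 libraries. Fosb, a close relative with a stable splice form, was at 18.9 and 129 CPM and at 1355 and 631 CPM. Both genes were lowest in mKate2 AAV replicate 1 and highest in mKate2 AAV replicate 2, so that the control libraries bracketed the Yap5SA libraries. Fosl2, which encodes FRA2 and usually responds later than Fos, varied least of the 10, from 8.50 and 11.3 CPM to 44.98 and 16.1 CPM.

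Among the Jun family, Jun was at 196 and 385 CPM in the 8.0.0 libraries and at 3405 and 2629 CPM in the 9.0.1 libraries. Junb, often a weaker activator than Jun, was at 58.5 and 185 CPM and at 1693 and 1242 CPM. Jund, the most constantly expressed member of the family in many tissues, was at 208 and 259 CPM and at 1926 and 1289 CPM. The highest library was 9.26 times the lowest for Jund, 17.4 times for Jun and 28.9 times for Junb.

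Atf3, a stress-induced factor that rises in injured neurons and glia, was at 11.2 and 92.4 CPM in the 8.0.0 libraries and 1440 and 773 CPM in the 9.0.1 libraries. Egr1, a zinc-finger factor induced through SRF, was at 63.2 and 273 CPM and at 3222 and 1693 CPM. Nr4a1, an orphan nuclear receptor, was at 1.68 and 10.2 CPM and at 488 and 207 CPM, the widest range of the 10 (290-fold). Ier2, a short nuclear protein, was at 51.9 and 110 CPM and at 801 and 918 CPM, and was the only member that was highest in Yap5SA AAV replicate 3. For each of the 10 genes both 9.0.1 libraries were above both 8.0.0 libraries.

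**Figure D1:**
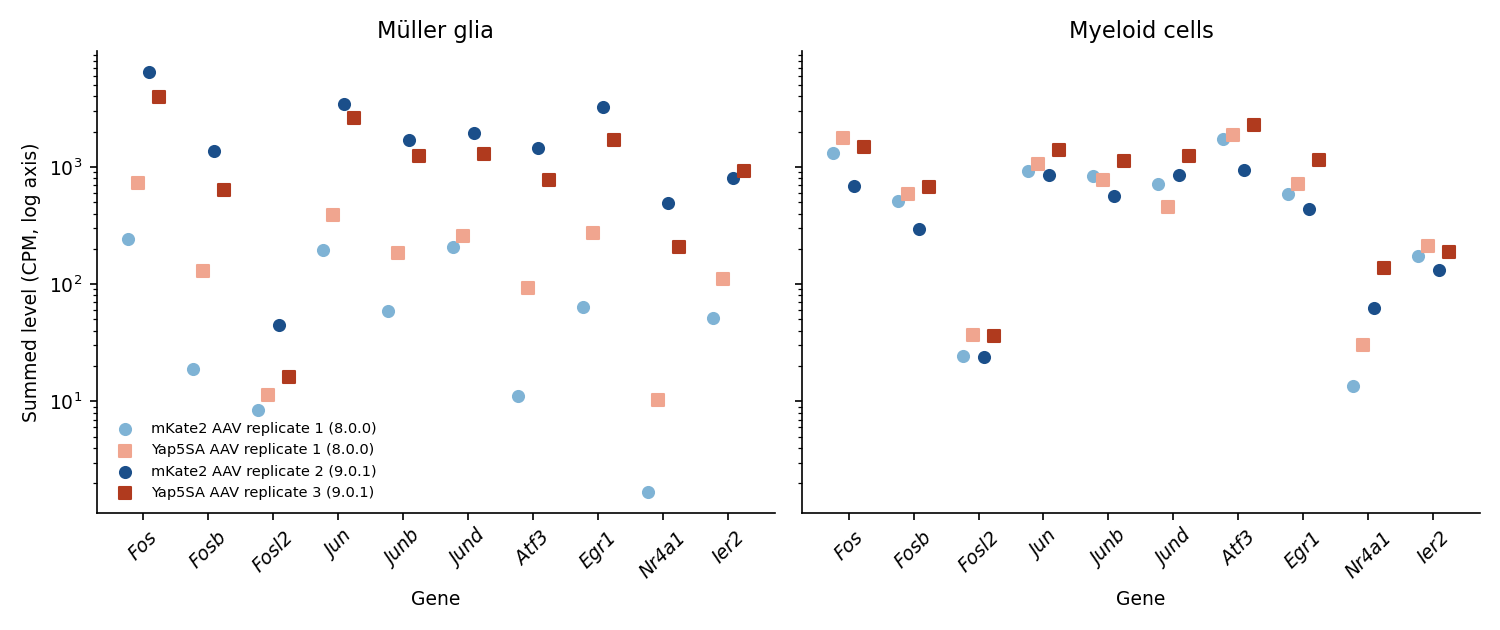
Level of each of the 10 genes (CPM, log axis) in the 4 libraries, 1 point per library, for Müller glia and for myeloid cells. In Müller glia the 9.0.1 libraries lie above the 8.0.0 libraries for all 10 genes, whereas in myeloid cells the libraries lie close together for all but Nr4a1.

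The comparison of Yap5SA AAV with mKate2 AAV, which is the study's own, gave no member and no other gene past an adjusted p of 0.05 in Müller glia (edgeR quasi-likelihood test, 15285 genes, 0% called; 30 genes at an unadjusted p under 0.05, none a member; DESeq2 also called 0, with 52 unadjusted). The fitted log2 fold changes of the members ran from −1.35 ± 2.32 (SE) for Nr4a1 to 0.10 ± 1.52 for Ier2, with adjusted p = 0.9999 for each. The errors exceed the estimates for 9 of the 10, so changes of severalfold in either direction lie within them. With the version in the model, an alternative added after the data were seen that leaves 1 residual degree of freedom, again 0 genes passed (151 at an unadjusted p under 0.05, none a member). There 8 of 10 members had values above 0, from −0.65 ± 0.60 for Fosl2 to 0.93 ± 1.29 for Atf3.

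Within the pairs the direction differed. Between the 8.0.0 libraries 10 of 10 members were higher with Yap5SA, with a median log2 difference of 1.62, whereas between the 9.0.1 libraries 1 of 10 was higher, Ier2 at 0.20, with a median of −0.80. Leaving out 1 library moved the median of the fitted changes from −2.44 without Yap5SA AAV replicate 3 to 3.50 without mKate2 AAV replicate 2, through −1.77 without mKate2 AAV replicate 1 and −0.00 without Yap5SA AAV replicate 1. In myeloid cells 8 and 10 of the 10 members were higher with Yap5SA in the 8.0.0 and 9.0.1 pairs.

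Between the versions, with the AAV in the model, all 10 members were higher in the Müller glia of the 9.0.1 libraries. The log2 difference was 3.73 ± 0.92 for Fos, 4.35 ± 1.30 for Fosb and 1.60 ± 0.61 for Fosl2. In the Jun family it was 3.58 ± 0.63 for Jun, 3.93 ± 0.76 for Junb and 2.90 ± 0.47 for Jund. It reached 5.14 ± 1.35 for Atf3, 4.28 ± 1.07 for Egr1, 6.22 ± 1.25 for Nr4a1 and 3.64 ± 0.43 for Ier2. None passed the adjusted threshold, at adjusted p = 0.177 for Ier2 to 0.416 for Fosl2, and neither did any of the 15285 genes (0% called), with 1896 at an unadjusted p under 0.05, 9 of them members. With 1 residual degree of freedom the test has little power. DESeq2 called 530 genes, of which 495 were higher in the 9.0.1 libraries, and 8 of the members. Both 9.0.1 libraries lay above both 8.0.0 libraries for 10 of 10 members, against 20.8% of all genes tested, and 54.9% of genes had libraries of the versions that did not overlap in either direction. Rod markers in the Müller glia moved with the version as well, from 129.6 and 10.4 CPM to 1052 and 1932 CPM over their 10 genes, as did cone markers, from 7.66 and 5.92 CPM to 111.6 and 120.0 CPM, and pigment epithelium markers, from 16.8 and 215 CPM to 538 and 4337 CPM. The 10 heat-shock genes went from 3301 and 3408 CPM to 7753 and 5093 CPM, and Malat1 from 8.85% and 7.81% to 3.01% and 3.69% of UMIs. Without the Müller glia that held markers of another class the log2 difference was 3.88 for Fos, 5.54 for Atf3 and 1.66 for Fosl2. The part of these measures in the difference was not tested.

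In sums over all depths, myeloid cells from the same libraries did not show this split. Their median depth was 14911 and 13065 UMIs in the 8.0.0 libraries and 3974 and 5352.5 UMIs in the 9.0.1 libraries. Myeloid cells with at least 10000 UMIs were at 8416 CPM in Yap5SA AAV replicate 1 and at 10135 and 14087 CPM in the 9.0.1 libraries. Over all depths the members summed to 6792 and 7500 CPM in the 8.0.0 libraries and 4839 and 9694 CPM in the 9.0.1 libraries. Fos was at 1309 and 1768 CPM in the former and 693 and 1472 CPM in the latter, and Atf3 at 1723 and 1869 CPM and at 942 and 2282 CPM. Jun was at 917 and 1047 CPM and at 846 and 1399 CPM, and Egr1 at 583 and 719 CPM and at 439 and 1148 CPM. Each of these 4 genes was lowest in mKate2 AAV replicate 2, the library where Müller glia were highest, while the highest myeloid value was in Yap5SA AAV replicate 1 or 3.

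Fosb was at 508 and 582 CPM in the 8.0.0 libraries and 293 and 667 CPM in the 9.0.1 libraries, Junb at 828 and 779 CPM and at 560 and 1116 CPM, and Ier2 at 175 and 209 CPM and at 132 and 188 CPM. The ranges of the versions overlapped for each of these 3. Only Nr4a1, at 13.4 and 30.2 CPM against 62.4 and 137 CPM, and Jund, at 710 and 459 CPM against 848 and 1247 CPM, had both 9.0.1 libraries above both 8.0.0 libraries in myeloid cells. That is 2 of 10, against 16% of all genes, and 38.3% of genes did not overlap in either direction. The highest myeloid library was between 1.52 times (Fosl2) and 2.72 times (Jund) the lowest for 9 members and 10.2 times for Nr4a1.

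The difference between the cell classes was tested with an interaction of class and version, with library as a block. Of 16107 genes 313 passed (1.94%; 1.35% with a lower difference in myeloid cells), and 8 of the 10 members were among them, all lower. The version difference in myeloid cells minus that in Müller glia was −3.91 ± 0.67 (SE, log2 scale) for Fos (adjusted p = 1.97e-06) and −4.23 ± 0.62 for Fosb (adjusted p = 7.37e-09). It was −3.02 ± 0.63 for Jun (adjusted p = 0.00027), −3.54 ± 0.61 for Junb (adjusted p = 2.92e-06) and −5.03 ± 0.68 for Atf3 (adjusted p = 1.72e-10). For Egr1 it was −3.74 ± 0.64 (adjusted p = 1.97e-06), for Nr4a1 −3.55 ± 0.62 (adjusted p = 4.38e-06) and for Ier2 −3.50 ± 0.56 (adjusted p = 2.29e-07). Fosl2, with a log2 value of −1.37 ± 0.69 (adjusted p = 0.487), and Jund, with −1.64 ± 0.60 (adjusted p = 0.171), did not pass.

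These p-values rest on 2 residual degrees of freedom and a spread that edgeR shared over all genes. Limma-voom, which was added after the data were seen, mixes each gene's own spread with the shared one. The shared spread had the greater weight there, with 10.8 prior against 2 residual degrees of freedom. With limma-voom the same 8 passed, at adjusted p = 0.00332 to 0.0433, and with DESeq2 at adjusted p up to 0.0323. The median of all genes was 0.23 on the same log2 scale. The 2 AAVs differed in size but not in sign. The difference of differences was −5.65 with mKate2 and −2.71 with Yap5SA for Fos, −7.88 and −2.78 for Atf3, and −4.36 and −3.21 for Ier2. It was −6.96 and −2.10 for Fosb, −4.24 and −2.35 for Jun, −5.42 and −2.23 for Junb, −6.08 and −1.96 for Egr1 and −5.96 and −2.17 for Nr4a1. For Jund, with −2.95 and −0.88, and Fosl2, with −2.41 and −0.52, the values were nearest to 0. It was negative with both AAVs for all 10 members. The myeloid sum of mKate2 AAV replicate 1 held only 25 cells. The class sums were not matched for depth, and the myeloid cells were deeper in the 8.0.0 libraries.

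**Figure D2:**
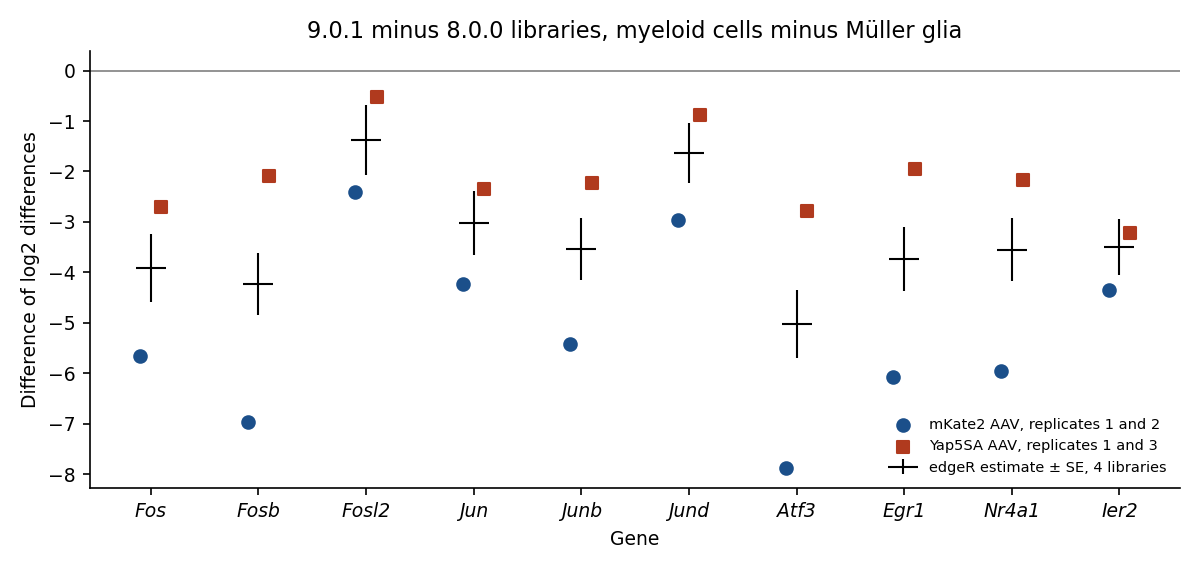
Version difference (9.0.1 minus 8.0.0) in myeloid cells minus that in Müller glia, in log2 units, for each gene. Points give the value within each AAV, and the edgeR estimate is drawn with its SE. All 10 genes lie below 0 with both AAVs.

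Set against Müller glia of the same library, myeloid cells had more of all 10 members in the 8.0.0 libraries and less of most in the 9.0.1 libraries. The median log2 difference, myeloid minus Müller glia, was 2.71 and 1.51 in the 8.0.0 libraries, with 10 of 10 members above 0 in each. In the 9.0.1 libraries it was −2.11 and −0.36, with 0 and 3 of 10 above 0. Atf3 was 7.27 and 4.34 higher in the myeloid cells of the 8.0.0 libraries on the log2 scale, and differed by −0.61 and 1.56 in the 9.0.1 libraries. Fos moved from 2.43 and 1.28 to −3.22 and −1.43, and Egr1 from 3.21 and 1.40 to −2.87 and −0.56. Which class was the higher one thus depended on the library for each of the 10 members.

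In the fit over all classes with library as a block (16 class sums, 16084 genes), 54% of genes differed between myeloid cells and Müller glia, 23.2% being higher and 30.7% lower in myeloid cells. Of the members, 2 of 10 were higher, Atf3 by 3.31 ± 1.09 (adjusted p = 0.0179) and Fosl2 by 1.18 ± 0.40 (adjusted p = 0.0222), and none was lower. The block assumes that a library shifts every class alike, which the interaction test above contradicted for 8 members. Against Müller glia under 10000 UMIs alone, a choice made after the data were seen, 9 members were higher in myeloid cells (25.8% of genes higher), and against those above it 0 (21.7% of genes higher). Myeloid cells of all depths were kept in both, so the classes were not matched for depth. The count of 2 members became 7 without mKate2 AAV replicate 2 and 0 without mKate2 AAV replicate 1 or Yap5SA AAV replicate 1. The genes called in all ran from 6838 to 7862 with 1 library left out.

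In sums over all cells, neurons had lower levels than Müller glia of their own library, except for cones in 1 library. The members summed to 5633 and 3258 CPM in rods, 2322 and 2306 CPM in bipolar cells and 3631 and 1847 CPM in amacrine cells of the 9.0.1 libraries, against 20845 and 13375 CPM in Müller glia. No member was above Müller glia in these 3 classes in either library. Cones gave 4922 CPM in mKate2 AAV replicate 2, again with 0 of 10 members above, but 13949 CPM in Yap5SA AAV replicate 3, with 6 of 10 above. The cone values rest on 39 and 49 cells. The Müller glia sums were carried by their deepest cells. In mKate2 AAV replicate 2, Müller glia with 1000 to 2000, 2000 to 5000 and 5000 to 10000 UMIs were at 3775, 3973 and 4575 CPM. These values lay below the 5633 CPM of its rods of all depths, but its rods of the same depths were at 2746, 1844 and 3711 CPM. In Yap5SA AAV replicate 3 the rods of these depths were at 2447, 1312 and 4699 CPM, against 2405, 3028 and 3119 CPM in Müller glia.

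Fos was at 1863 and 1222 CPM in rods, 1697 and 4376 CPM in cones, 736 and 845 CPM in bipolar cells and 1337 and 587 CPM in amacrine cells. Egr1 was at 1370 and 633 CPM in rods and 857 and 2400 CPM in cones. Jun was at 449 and 370 CPM in rods and at 469 and 2096 CPM in cones. The cones of Yap5SA AAV replicate 3 were therefore above those of mKate2 AAV replicate 2 in all 3 genes, while rods went the other way. Atf3 was at 177 and 99.9 CPM in rods, 171 and 1049 CPM in cones and 16.7 and 3.55 CPM in amacrine cells, the last being 46 and 2 UMIs (95% Poisson interval 0.43 to 12.8 CPM for the latter).

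Jund was at 461 and 337 CPM in rods, 647 and 1310 CPM in cones, 294 and 265 CPM in bipolar cells and 362 and 189.8 CPM in amacrine cells. Nr4a1 was at 235 and 48.7 CPM in rods and 202 and 552 CPM in cones, and Ier2 at 52.8 and 63.6 CPM in bipolar cells and 78.2 and 78.1 CPM in amacrine cells. All of these lay below the 1926 and 1289 CPM of Jund, 488 and 207 CPM of Nr4a1 and 801 and 918 CPM of Ier2 in Müller glia, other than Jund and Nr4a1 in the cones of Yap5SA AAV replicate 3.

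Fosl2 was rare in rods, cones and bipolar cells. It had 2 and 1 UMIs in rods, that is 0.33 CPM (95% interval 0.040 to 1.203) and 0.37 CPM (0.0093 to 2.05), against 44.98 and 16.1 CPM in Müller glia. Cones had 0 UMIs in both libraries. With a limit of 3 counts per library this puts Müller glia at least 9.36-fold and 3.61-fold higher. Bipolar cells had 9 and 0 UMIs, the latter putting Müller glia at least 6.41-fold higher, and amacrine cells had 25 and 4, or 9.05 CPM (5.86 to 13.4) and 7.10 CPM (1.93 to 18.2), near the 8.50 CPM of Müller glia in mKate2 AAV replicate 1. Without thinning, 14.4% of amacrine cells and 8.14% of Müller glia of mKate2 AAV replicate 2 had a Fosl2 UMI, at median depths of 25489 and 2919 UMIs. Intervals and limits cover counting error only. In myeloid cells Fosl2 was at 24.2, 24.1, 36.6 and 36.1 CPM in the 4 libraries, in the order of the cell counts above.

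**Figure D3:**
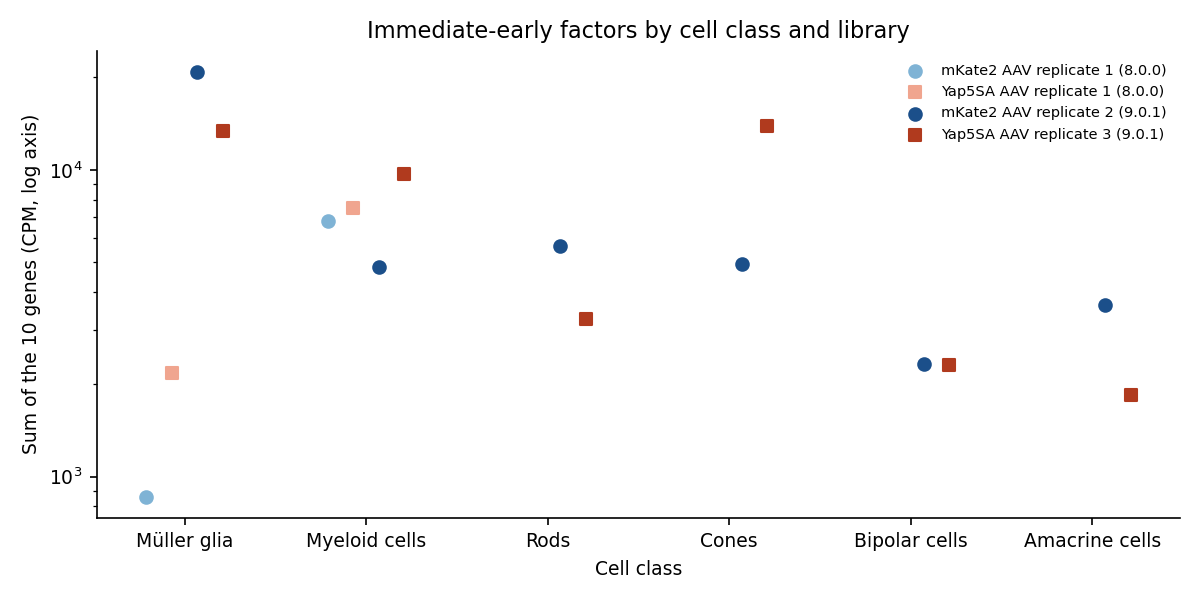
Summed level of the 10 genes (CPM, log axis) by cell class and library, 1 point per class and library of at least 20 cells. Müller glia run from 861 to 20845 CPM, myeloid cells from 4839 to 9694 CPM, and myeloid cells lie above the Müller glia of their library in the 8.0.0 libraries, as do cones in Yap5SA AAV replicate 3 (13949 against 13375 CPM).

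In the same fit, rods had 3 members lower than Müller glia and none higher, against 47.6% of genes called, 29.1% lower and 18.5% higher. They were Fosl2, Jun (−2.44 ± 0.80, adjusted p = 0.0199) and Jund (−1.77 ± 0.51, adjusted p = 0.00994). Bipolar cells had 6 lower and none higher (44.4% of genes called, 23.5% lower): Fosl2, Nr4a1, Ier2 (−3.37 ± 0.79, adjusted p = 0.00278), Jun (−2.99 ± 0.82), Junb (−2.85 ± 0.81) and Jund (−2.25 ± 0.52). Amacrine cells had 5 lower and none higher (39.7% of genes called, 21.6% lower): Fosl2, Jun, Jund, Ier2 and Atf3 (−6.02 ± 1.44, adjusted p = 0.00378). Cones had 1 lower, Fosl2 (37.3% of genes called, 21.7% lower), and none higher. Jund and Jun were each lower in 3 of the 4 neuron classes, and Fos, Fosb and Egr1 passed in none, with log2 values of −2.14 to −0.27 for Fos and adjusted p of 0.0546 at the least. Against Müller glia under 10000 UMIs the log2 difference turned for 6 members in rods, among them Nr4a1 (3.23), Fosb (2.72) and Egr1 (1.57), for 7 in cones, 4 in bipolar cells and 3 in amacrine cells. Only the Müller glia were limited in depth there, while neurons of all depths were kept, so the classes were not matched for depth. The median over all genes was −0.25 for rods, −0.23 for cones, −0.03 for bipolar cells and −0.11 for amacrine cells.

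In the 9.0.1 libraries the level stepped up in the deepest Müller glia. In the 9.0.1 libraries, cells with 1000 to 2000 UMIs had 3775 and 2405 CPM of the members, cells with 2000 to 5000 had 3973 and 3028 CPM, and cells with 5000 to 10000 had 4575 and 3119 CPM. Cells with at least 10000 UMIs (363 and 167 cells) had 33384 and 22369 CPM. The step at 10000 UMIs was 7.30-fold and 7.17-fold, while below it the bins differed little. In the 8.0.0 libraries the same bins gave 539, 646, 545 and 1036 CPM in the mKate2 library and 510, 1282, 816 and 2459 CPM in the Yap5SA library, so every depth bin of a 9.0.1 library lay above the same bin of the 8.0.0 library with its AAV. Between the last 2 bins, myeloid cells also rose, from 1440 to 10135 CPM in mKate2 AAV replicate 2 and from 2059 to 8416 CPM in Yap5SA AAV replicate 1. Rods went from 3711 to 6902 CPM in mKate2 AAV replicate 2 and from 4699 to 4383 CPM in Yap5SA AAV replicate 3.

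The step was unequal among the members. From the bin of 5000 to 10000 UMIs to that above it, Atf3 rose 63.0-fold and 36.9-fold, Fosb 33.5-fold and 29.4-fold and Nr4a1 23.1-fold and 54.6-fold. Jun rose 14.4-fold and 12.5-fold, Egr1 9.85-fold and 8.81-fold, and Fos 5.90-fold and 5.97-fold. Jund, whose level in the shallower bins was already 595 to 1004 CPM, rose 2.68-fold in both. These folds compare sums of cells within a library and carry no test.

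Other measures changed at the same depth. In the 9.0.1 libraries the nuclear RNA Malat1 was 0.12% to 0.55% of UMIs in the 3 shallower bins and 5.13% and 6.65% in the deepest. Mitochondrial UMIs fell from 7.31% to 2.43% and from 4.73% to 1.04% between the last 2 bins. UMIs of ribosomal protein genes fell from 10.0% to 3.32% and from 6.14% to 1.74% there. In the 8.0.0 libraries they went from 3.79% to 3.72% and from 5.44% to 5.09%. The study left out its larger cluster, of lower UMI counts and raised ribosomal share, as bearing signs of dissociation stress. How far that cluster overlaps the shallower bins was not tested. The 10 heat-shock genes fixed as a sign of dissociation were at 10028 and 6367 CPM in the deepest bin of the 9.0.1 libraries and 3332 and 3511 CPM in that of the 8.0.0 libraries. Their part in the level of the members was not tested. Among cells with at least 10000 UMIs, the other classes of mKate2 AAV replicate 2 were at 10135 CPM (myeloid), 6902 CPM (rods), 5200 CPM (cones), 3697 CPM (amacrine) and 2347 CPM (bipolar), all below the 33384 CPM of its Müller glia. In Yap5SA AAV replicate 3 myeloid cells of that depth were at 14087 CPM (20 cells) and cones at 14870 CPM (32 cells), below 22369 CPM in Müller glia.

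**Figure D4:**
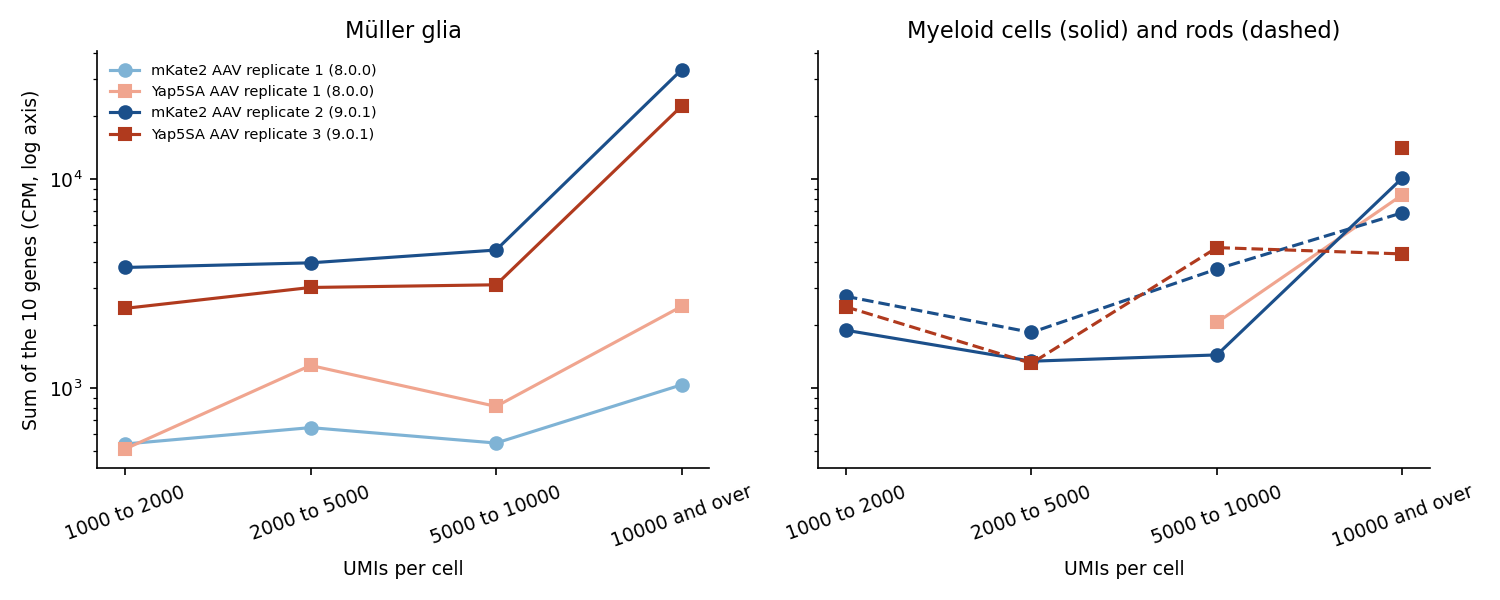
Summed level of the 10 genes (CPM, log axis) by UMIs per cell, for Müller glia and for myeloid cells (solid) and rods (dashed), 1 line per class and library. In the Müller glia of the 9.0.1 libraries the level steps up above 10000 UMIs per cell, to 33384 and 22369 CPM, and in those of the 8.0.0 libraries it stays at or below 2459 CPM.

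The member UMIs were held by few cells. The tenth of Müller glia with the highest member share held 88.3% and 89.8% of all member UMIs in the 9.0.1 libraries, with 41.5% and 35.0% of all UMIs, and 50.4% and 74.7% in the 8.0.0 libraries, with 12.8% and 15.9% of all UMIs. The median cell had 0.274% and 0.185% of its UMIs from the members in the 9.0.1 libraries and 0.0391% and 0.0476% in the 8.0.0 libraries, and the highest cell had 10.3%, 7.41%, 2.88% and 3.77%. At least 1% of UMIs came from the members in 69.7% and 48.5% of Müller glia above 10000 UMIs in the 9.0.1 libraries, and in 0.22% and 6.05% in the 8.0.0 libraries.

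To compare shares of cells at 1 depth, each cell was thinned to 2000 UMIs and shallower cells were left out (308, 870, 93 and 411 Müller glia of mKate2 replicates 1 and 2 and Yap5SA replicates 1 and 3). At that depth 44.3% and 34.4% of Müller glia in the 8.0.0 libraries and 9.52% and 13.9% in the 9.0.1 libraries had no UMI of any member. At least 5 members were seen in 0.756% and 9.15% against 31.5% and 23.98%. Without thinning, 26.0% and 18.2% of the cells in the 8.0.0 libraries and 10.1% and 12.2% of those in the 9.0.1 libraries had none. In thinned myeloid cells the share with none was 14.3% and 18.2% in the 8.0.0 libraries and 32.6% and 26.4% in the 9.0.1 libraries, the reverse order. Before thinning, all myeloid cells had a median depth of 14911 and 13065 UMIs in the 8.0.0 libraries and 3974 and 5352.5 UMIs in the 9.0.1 libraries. Fos was seen in 47.6% and 52.9% of thinned myeloid cells in the 8.0.0 libraries and in 29.4% and 34.0% in the 9.0.1 libraries, and Atf3 in 61.9% and 57.0% against 17.2% and 26.4%, with 21 and 121 cells against 752 and 53.

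Fos was seen in 14.96% and 25.2% of thinned Müller glia in the 8.0.0 libraries (exact 95% binomial intervals 13.0 to 17.1 and 22.1 to 28.6) and in 70.0% and 56.0% in the 9.0.1 libraries (68.0 to 72.0 and 52.8 to 59.2). Jund was seen in 31.8% and 33.7% against 69.8% and 66.0%, and Egr1 in 4.96% and 19.7% against 47.0% and 32.4%. Atf3 was seen in 0.84% and 7.32% against 14.8% and 9.03%. The gap was thus wide for Fos, Jund and Egr1 in both AAVs, while the intervals of Atf3 in the Yap5SA libraries overlapped (5.52 to 9.49 and 7.27 to 11.1). No class here is known to lack these genes, so a share due to free RNA was not measured separately. Fosl2 was seen in no thinned neuron. In mKate2 AAV replicate 2, thinned rods (606 cells) were seen with Fosb more often than Müller glia (30.0% against 19.2%), and likewise with Nr4a1 (25.4% against 10.7%), Egr1 (52.0% against 47.0%) and Atf3 (18.2% against 14.8%), but less often with Fos (58.6% against 70.0%) and Jund (45.5% against 69.8%). In Yap5SA AAV replicate 3 the rods gave 15.6% against 10.8% for Fosb and 7.27% against 5.38% for Nr4a1, and 23.6% against 32.4% for Egr1. The median depth before thinning was 8811 and 4235 UMIs in these rods and 4027 and 3937 UMIs in the Müller glia.

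**Figure D5:**
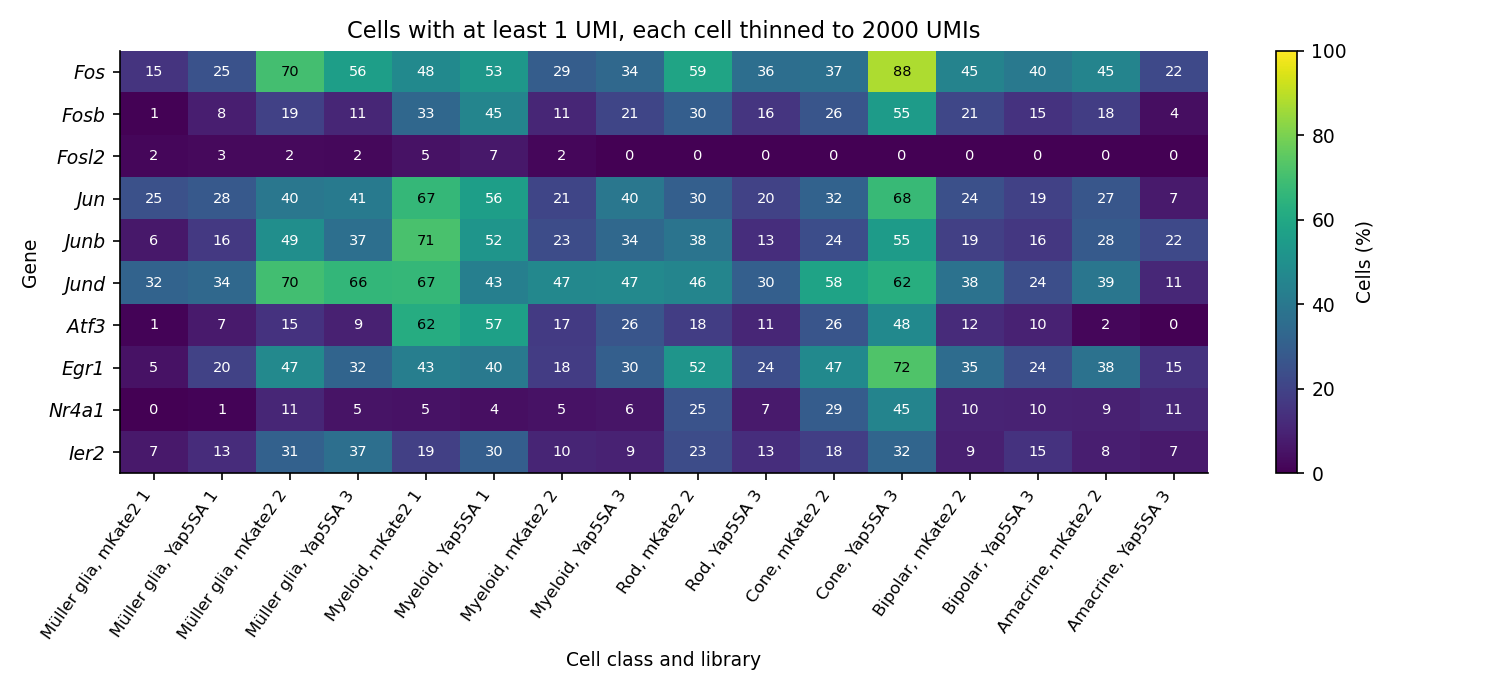
Percent of cells with a UMI of each gene after thinning to 2000 UMIs per cell, by cell class and library. For Müller glia, Fos goes from 14.96% and 25.2% in the 8.0.0 libraries to 70.0% and 56.0% in the 9.0.1 libraries, and Fosl2 is at most 6.61% in every class.

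Within a library, members varied together from cell to cell. As a description over thinned Müller glia, which share depth and library, Pearson's r between Fosb and Atf3 was 0.75 and 0.74 in the 9.0.1 libraries and 0.32 and 0.47 in the 8.0.0 libraries. Between Fos and Egr1 it was 0.70 and 0.65 and 0.20 and 0.60. Fos and Fosl2 gave 0.16 and 0.07 in the 9.0.1 libraries and 0.03 and 0.13 in the 8.0.0 libraries, so Fosl2 followed the others little, in sparse counts. Both Fosb and Atf3 were seen in 11.3% of the thinned Müller glia of mKate2 AAV replicate 2, where independent detection would give 2.84%.

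Across the 16 class sums, the gene outside the members and lists whose level was most like the summed members was Ubb (Pearson's r = 0.85 among 4291 genes with a mean of at least 50 CPM), which encodes a polyubiquitin. Coq10b (0.84), Zfand5 (0.83), Ifrd1 (0.80), Mtpn (0.80), Irs2 (0.80) and Actg1 (0.80) followed. The sums share libraries and classes, and r is given without a test. Among the members, r with the sum of the other 9 was highest for Fosb (0.95) and lowest for Fosl2 (0.29), with 0.74 for Nr4a1 and 0.76 for Atf3.

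The other genes of the response were described by 4 lists. Of 22 other immediate-early genes, 21 could be tested in the interaction of class and version, and 16 were lower there (median log2 value −3.46 against 0.23 over all genes), none higher. They included Arc (−6.28), a synaptic protein made on neuronal activity, Btg2 (−3.46), an antiproliferative factor, and Klf6 (−3.07), a zinc-finger factor. In contrast, 2 of 13 AP-1 partners were lower, the small Maf proteins Maff (−5.26) and Mafk (−3.28). Of 14 regulators upstream, 1 was lower, the ERK phosphatase Dusp6 (−2.79), and none of the kinases or of Srf and Creb1 passed. Of 10 heat-shock genes 1 was lower, Dnajb1 (−3.25), and 1 higher, Hsph1 (2.69).

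In Müller glia by AAV and by version no gene of the 4 lists passed (edgeR, as for all genes). The median log2 difference between versions was 3.83 for the 21 other immediate-early genes tested, 1.14 for the heat-shock genes, 0.84 for the 11 AP-1 partners tested and −0.01 for the regulators, against 0.01 over all genes.

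Against Müller glia, myeloid cells had 12 of 22 other immediate-early genes higher and 3 lower, where 23.2% of all genes were higher and 30.7% lower. Klf2, a flow-responsive factor, had a log2 difference of 4.25 ± 0.64, Klf6 of 3.10 ± 0.62 and Btg1 of 2.03 ± 0.29, whereas Ccn1, a matricellular protein and YAP target, was at −4.99 ± 0.58. Of 13 AP-1 partners 6 were higher, led by Batf3 (6.82 ± 0.46), a factor known from dendritic cells, and 2 were lower, with Fosl1 at −2.00 ± 0.59. Of the regulators 3 were higher and 3 lower, among them Elk3 (2.14) and Mrtfb (−2.17). Of the heat-shock genes 4 were higher and 1 lower.

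In neurons the other immediate-early genes lower than in Müller glia were 16 of 22 in rods (29.1% of all genes), 15 in bipolar cells (23.5%), 14 in amacrine cells (21.6%) and 7 in cones (21.7%), where 12 did not pass. Ccn1 had the lowest value in each class, from −8.46 in bipolar cells to −7.22 in cones. From 2 to 3 genes of the list were higher in each, with the activity-dependent factor Npas4 at 3.49 in rods, 4.45 in bipolar cells, 6.36 in amacrine cells and 6.71 in cones. Of the partners 5 of 13 were lower in each class, and 1 or 2 higher. Among the regulators Mapk8, which encodes the kinase JNK1, was higher in all 4 neuron classes, by 1.22 in amacrine cells to 2.38 in rods. Dusp6 was lower in rods (−6.31) and in bipolar cells (−2.80). The heat-shock genes had 6 of 10 lower in rods and in amacrine cells, 5 in bipolar cells and 0 in cones, and none higher.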

How the data were processed

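UMI counts of single cells were analysed from 4 of 5 libraries. Per the labels and the study's methods, the authors made the deposited counts with Cell Ranger 8.0.0 on GRCm39, without normalization, and the matrix headers name 9.0.1 for 2 libraries. The members and gene lists were chosen with earlier results of these data known.

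Barcodes with at least 1000 UMIs and at most 15% mitochondrial UMIs were kept, and no doublet caller was run. Müller glia were set by the marker rule (0.5%), with 193 cells up to 20% below that threshold and 210 up to 20% above it. Other cells went to the class whose marker share was highest relative to its threshold (0.5% of UMIs for myeloid cells, rods, cones and pigment epithelium, 0.3% for bipolar and 0.2% for amacrine cells). These thresholds were set after marker levels were seen, without reading the members, and 1093 cells stayed unassigned.

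Counts were summed per class and library (at least 20 cells), giving 16 sums, and tested with edgeR 4.0.16 in R 4.3.3 (TMM, filterByExpr, quasi-likelihood, 2-sided, Benjamini-Hochberg adjustment over all genes, threshold 0.05). Alternatives used DESeq2 1.42.0, limma 3.58.1, other filters and other cells. The scripts were tested on simulated data. All 10 members are named. From each list, those named are the called genes with the largest rise and fall and the 2 with the highest mean, though not every gene so chosen is reported here. Promoter letters were searched in GRCm39 with GENCODE vM39. Likeness was Pearson's r of log2(CPM + 1). Python 3.11.15 was used for the sums and figures.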

Additional observations from a re-analysis of the deposited data

Results flagged for a closer look

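For 8 genes the difference between the 9.0.1 and the 8.0.0 libraries was itself different in 2 cell classes, myeloid cells and Müller glia, by a test of the interaction (edgeR, library as a block, adjusted p at most 0.00027). The version difference in myeloid cells minus that in Müller glia, on the log2 scale, was −5.03 for Atf3, −4.23 for Fosb and −3.91 for Fos. It was −3.74 for Egr1, −3.55 for Nr4a1 and −3.54 for Junb, and −3.50 for Ier2 and −3.02 for Jun. Both AAVs gave the same sign for each gene. The sums were not matched for depth, which in myeloid cells was higher in the 8.0.0 libraries. The 2 samples per group were too few to look for single libraries far from the rest.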

How the results depend on the processing

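No paired analysis was possible because, by replicate number, the compared groups share only number 1 once Yap5SA AAV replicate 2, which holds the cells of replicate 1, is left out; the version was used as a block instead. Each AAV had 2 libraries, of 13132765 to 50938304 UMIs. Over all alternatives, 1171 of the single-gene values kept direction and side of the threshold, 111 newly passed it, 34 no longer passed and 89 turned. Of the counts 217 stayed within 1.5 times and 65 moved. The causes were not tested. Alternatives with depth limits for Müller glia, robust shrinkage, limma-voom and the version as a block were chosen after seeing the data. The depth limits applied to Müller glia only, and the other classes kept cells of all depths.

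For the interaction of class and version, over 17 alternatives Fosb and Junb passed in 17, Fos, Atf3, Egr1 and Ier2 in 16, Nr4a1 in 15, Jun in 14, Fosl2 in 1 and Jund in 0. The members called numbered 5 with cells thinned to 1000 UMIs, 5 with Müller glia under 10000 UMIs (where Fosl2 turned to 0.28), and 5 to 8 when 1 library was left out (5 without mKate2 AAV replicate 2). The genes called in all were 104 with DESeq2, 108 with limma-voom, 12 with thinned cells, 741 with Müller glia of at least 10000 UMIs, and 134 to 357 with 1 library left out.

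For the version in Müller glia, DESeq2 called 8 members of 530 genes, thinned cells gave 2 of 75, Müller glia under 10000 UMIs 1 of 273 (Fosl2 turned to −0.24), and no low-count filter 0 of 39. Leaving out a library left no residual degree of freedom, and the values stayed positive for all 10 members. For the AAV in Müller glia, where no member passed, limma-voom turned Fos to 0.48, Fosb to 0.86, Jun to 0.33, Junb to 0.64, Atf3 to 1.10, Egr1 to 0.64 and Nr4a1 to 0.29, and Müller glia under 10000 UMIs turned Fosl2 to 0.10. The version as a block turned Fos to 0.34, Fosb to 0.71, Jun to 0.20, Junb to 0.50, Atf3 to 0.93, Egr1 to 0.48 and Nr4a1 to 0.296. Leaving out 1 library gave −2.41 to 3.32 for Fos, −2.63 to 4.37 for Fosb, −1.91 to 0.71 for Fosl2, −2.43 to 2.99 for Jun, −2.45 to 3.65 for Junb, −2.24 to 1.94 for Jund, −3.19 to 5.31 for Atf3, −2.80 to 3.9999 for Egr1, −4.80 to 6.05 for Nr4a1 and −2.16 to 3.35 for Ier2.

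Against Müller glia, the members called in myeloid cells were 4 with no low-count filter, 1 with robust shrinkage, 1 with limma-voom, 4 with thinned cells (3 higher, 1 lower), 1 with at least 50 cells per sum, 0 with Müller glia of at least 10000 UMIs and 9 with those under it. Of all genes, 9503 of 26340 passed with no filter, 3593 of 8983 with thinned cells and 8298 of 18644 with 50 cells per sum. Of 16084 genes, 8664 passed with robust shrinkage and 9249 with limma-voom. With Müller glia of at least 10000 UMIs 8359 of 16138 genes passed, and with those under it 8478 of 15612. With 1 library left out the members called were 0 to 7 (6838 to 7862 genes in all), and Fos ran from −0.79 to 1.19, Jun from −0.12 to 1.32, Egr1 from −0.24 to 1.71, Nr4a1 from −0.93 to 1.203 and Ier2 from −0.96 to 0.58. Fos turned to −0.23 with limma-voom, −0.82 with at least 50 cells per sum and −0.31 with Müller glia of at least 10000 UMIs. With 50 cells per sum Jun turned to −0.17 and Egr1 to −0.23. Nr4a1, near 0, turned to 0.0028 with RLE normalization, 0.62 with DESeq2, 0.12 with a marker share of 1%, 0.011 without Müller glia holding other markers, 0.019 with Yap5SA AAV replicate 2 in place of replicate 1 and 3.56 with Müller glia under 10000 UMIs, where Ier2 turned to 1.08.

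In rods the members called were 9 with no filter, 7 with 50 cells per sum, 5 (all lower) with Müller glia of at least 10000 UMIs, 5 (4 higher, 1 lower) with those under it and 2 to 6 with 1 library left out, and in all 4818 genes with thinned cells and 4125 to 7764 with 1 library left out. Of all genes, 8224 of 26340 passed with no filter and 8077 of 18644 with 50 cells per sum. With Müller glia of at least 10000 UMIs 6400 of 16138 genes passed, and with those under it 8828 of 15612. Thinning turned Fosb to 0.50, Egr1 to 0.23 and Nr4a1 to 0.52. Müller glia under 10000 UMIs turned Fos to 0.61, Fosb to 2.72, Jun to 0.060, Atf3 to 1.96, Egr1 to 1.57 and Nr4a1 to 3.23.

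In cones the members called were 4 with no filter, 4 with thinned cells (all higher), 6 with Müller glia under 10000 UMIs (5 higher, 1 lower) and 1 to 5 with 1 library left out (3060 to 6022 genes). Of all genes, 6142 of 26340 passed with no filter and 2345 of 8983 with thinned cells. With Müller glia under 10000 UMIs 7338 of 15612 genes passed. Thinning turned Fos to 0.30, Atf3 to 1.24 and Egr1 to 1.15. Müller glia under 10000 UMIs turned Fos to 1.57, Jun to 1.58, Junb to 0.27, Jund to 0.23, Atf3 to 4.06, Egr1 to 2.33 and Ier2 to 0.36. Those of at least 10000 turned Fosb to −0.42 and Nr4a1 to −0.14, and a marker share of 1% turned Egr1 to 0.0042. With 1 library left out Fos ran from −1.64 to 0.76, Fosb from −1.37 to 1.56, Jun from −2.68 to 0.22, Jund from −1.61 to 0.29, Atf3 from −2.72 to 1.14, Egr1 from −1.62 to 1.05 and Nr4a1 from −1.04 to 1.82.

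In bipolar cells 10 members passed with no filter, 10 with 50 cells per sum, 6 with Müller glia under 10000 UMIs (3 higher, 3 lower) and 5 to 10 with 1 library left out (3128 to 7271 genes), and 4309 genes with thinned cells, where Fosb turned to 0.12. Of all genes, 7592 of 26340 passed with no filter and 7409 of 18644 with 50 cells per sum. Against Müller glia under 10000 UMIs, 8854 of 15612 genes passed. Müller glia under 10000 UMIs turned Fosb to 2.31, Atf3 to 1.77, Egr1 to 0.27 and Nr4a1 to 1.86. In amacrine cells 10 members passed with no filter, 9 with Müller glia of at least 10000 UMIs, 3 with those under it (1 higher, 2 lower) and 4 to 9 with 1 library left out (2840 to 6492 genes), and 3120 genes with thinned cells. Of all genes, 6766 of 26340 passed with no filter and 4865 of 16138 with Müller glia of at least 10000 UMIs. The number for those under it is not given here. Müller glia under 10000 UMIs turned Fosb to 1.62, Egr1 to 0.87 and Nr4a1 to 2.47.

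The share of Müller glia with no member UMI, at 2000 UMIs per cell in the report, was 62.2%, 21.3%, 57.7% and 27.5% at 1000 UMIs in mKate2 replicates 1 and 2 and Yap5SA replicates 1 and 3, and without thinning 26.0% in mKate2 replicate 1 and 18.2% in Yap5SA replicate 1.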

Other observations

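Cells that met no class threshold, 143 and 182 in the 8.0.0 libraries and 628 and 140 in the 9.0.1 libraries (mKate2 first), held the members at 3679, 4340, 5060 and 4288 CPM in sum. Their Fos was at 583, 1478, 1412 and 1587 CPM and their Jun at 854, 706, 735 and 414 CPM, and no cell type is given to them here.

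Yap5SA AAV replicate 2, which shares its cells with replicate 1, gave CPM values over all barcodes that differed from those of replicate 1 by −5.02% for Nr4a1 to 1.77% for Atf3. Fos was at 945 CPM in replicate 1 and 953 CPM in replicate 2.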
